A study of Homo sapiens with 6 samples.

Results

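Histone genes were followed in Ls174t cells, a human colorectal adenocarcinoma line, with and without overexpression of RNF186, an E3 ubiquitin ligase with a RING domain that gut epithelial cells express. Members were all gene rows whose Entrez identifier carries a current protein-coding symbol of a core or linker histone. The symbols accepted start with H1-, H2AC, H2BC, H3C, H4C, H2AZ, H2AX, H2AJ, H3-3 or MACROH2A. The rule found 82 genes among 19484 gene rows of the table, 70 replication-dependent and 12 variant. Of these, 55 lie on chromosome 6 and 14 on chromosome 1 in the RefSeq table. The rule uses no measured value, but it was set with earlier results of these data known.

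Cells of a vector control line (genotype Vector) and of a stable RNF186-overexpressing line (genotype RNF186-overexpression) were each split into 3 dishes of 6 cm and harvested, untreated, after 48 h in DMEM with 10% FBS and 1% penicillin-streptomycin. Because all dishes of a group come from 1 line, each p-value below measures the spread between dishes and not between independently made lines. RNF186 itself was at 0.67 ± 0.0529 FPKM (SD, n = 3) with vector and 505 ± 65.2 with overexpression. FPKM is the number of fragments scaled to gene length in kilobases and to library size. On the leading principal component (79.9% of the variance) the groups separated, and on the next (10.1%) RNF186 replicate 2 stood apart, at 12.09 against -5.59 to 4.64 elsewhere. All 10 markers of colorectal epithelium reached a mean of 1 FPKM, with KRT8 the highest, and their sum was 6061 to 6571 FPKM with vector and 4953 to 5369 with RNF186, groups that do not overlap. The part of this difference in the histone results was not tested. The labels' extraction text mentions retinas, and the 8 retinal markers with values summed to 2.99 to 3.48 FPKM per library. Markers of leukocytes, endothelium and fibroblasts summed to 17.2 to 18.8 with vector and 21.2 to 22.1 with RNF186, of which LYZ, a gene also used by gut epithelium, made up a mean of 17.3.

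Histones wrap DNA into nucleosomes, whose core holds H2A, H2B, H3 and H4, while linker histone H1 binds where DNA enters and leaves. Replication-dependent histone genes are packed in clusters, are transcribed in S phase, and give intronless mRNAs that normally end in a stem-loop in place of a poly(A) tail. Variant (replacement) histone genes stand alone, are transcribed throughout the cell cycle, and give polyadenylated mRNAs. Some clustered genes also give polyadenylated mRNAs, and H2AX, counted here as a variant, gives both forms. The library kit named in the labels is an oligo-dT kit in its standard protocol, so levels of replication-dependent genes here need not follow their stem-loop mRNAs. The share of each form was not measured.

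Promoter windows are shown for 4 genes whose changes are described below. H1-2 was the only replication-dependent linker gene tested and was called lower, H2BC21 was the only tested replication-dependent member called higher, and H3-3A and H3-3B encode the same protein but moved in opposite directions. Each window runs from 250 bases before the annotated transcript start to 50 after it, 5′ to 3′ on the gene's strand, from RefSeq on GRCh38.p14. Capitals mark the CCAAT box, the core promoter motif TATAAA, the octamer ATTTGCAT, the H1 box AAACACAAA and TGACGTCA (cyclic AMP response element). Only exact matches were searched, on both strands. The windows lie at chr6:26056421-26056720 (minus strand), chr1:149886633-149886932 (minus), chr1:226062466-226062765 (plus, the most downstream of 4 annotated starts) and chr17:75779730-75780029 (minus).

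H1-2: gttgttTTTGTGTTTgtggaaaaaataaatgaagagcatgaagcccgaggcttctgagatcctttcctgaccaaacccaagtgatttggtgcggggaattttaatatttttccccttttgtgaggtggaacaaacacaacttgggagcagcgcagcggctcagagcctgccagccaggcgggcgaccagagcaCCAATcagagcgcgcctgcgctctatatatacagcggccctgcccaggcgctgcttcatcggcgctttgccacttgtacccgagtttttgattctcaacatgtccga
H2BC21: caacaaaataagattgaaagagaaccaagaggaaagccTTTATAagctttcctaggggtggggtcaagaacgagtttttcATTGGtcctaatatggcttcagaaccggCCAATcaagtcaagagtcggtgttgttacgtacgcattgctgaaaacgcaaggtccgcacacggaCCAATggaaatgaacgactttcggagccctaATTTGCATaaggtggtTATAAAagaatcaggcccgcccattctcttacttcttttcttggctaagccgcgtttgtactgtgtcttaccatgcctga
H3-3A: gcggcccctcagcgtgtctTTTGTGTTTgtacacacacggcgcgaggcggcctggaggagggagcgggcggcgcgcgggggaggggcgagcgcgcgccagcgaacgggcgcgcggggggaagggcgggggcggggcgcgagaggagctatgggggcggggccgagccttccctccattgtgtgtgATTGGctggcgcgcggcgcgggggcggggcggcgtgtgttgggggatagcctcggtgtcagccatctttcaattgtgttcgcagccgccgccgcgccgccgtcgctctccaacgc
H3-3B: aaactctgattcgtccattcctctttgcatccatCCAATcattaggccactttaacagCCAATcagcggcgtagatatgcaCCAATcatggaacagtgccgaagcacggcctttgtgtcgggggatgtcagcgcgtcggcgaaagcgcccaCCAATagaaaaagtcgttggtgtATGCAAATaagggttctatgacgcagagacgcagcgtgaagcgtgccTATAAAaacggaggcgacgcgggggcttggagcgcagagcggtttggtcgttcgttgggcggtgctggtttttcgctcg

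The window of H2BC21 holds TATAAA 30 bases and the octamer 46 bases before the start. H2BC21 and H2AC20 are transcribed away from each other with 235 bases between them, and their windows share 265 bases, so H2AC20 has the same boxes in reverse order. The window of H3-3B holds 4 CCAAT boxes, TATAAA and an octamer on the opposite strand. That of H3-3A holds 1 CCAAT on the opposite strand and no TATAAA, and an AAACACAAA. Among members 75 of 82 had a window, 64 replication-dependent and 11 variant. CCAAT was present in 84.4% of the replication-dependent genes and 81.8% of the variants, against 39.7% of 27305 genes with a window. TATAAA was present in 67.2% and 36.4%, against 14.0%. The octamer was present in 40.6% of the replication-dependent genes, among them 14 of 18 H2B and 11 of 16 H2A genes, against 2.19% of all. The exact letters AAACACAAA were present, on either strand, in 3 of 6 replication-dependent H1 genes. In H1-2 they lie on the opposite strand, 244 bases before the start, and shorter or inexact forms of the H1 box were not searched. TGACGTCA was present in 14.1% of the replication-dependent genes and in none of the variants, against 2.25%. The octamer was held by H2BC21, which was called higher, and by H2AC20 and H2BC12, which were called lower, among the tested members of the clusters, and by H2AC6 and H2BC4, which were not called. A match is a description of letters in a window and not of a factor's binding.

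Of the 82 members, 69 had values and 13 had none. A further 3 were at 0 in every library, 43 had a mean above 0 but under 1 FPKM, and 23 reached a mean of 1 FPKM over the 6 libraries and were tested, 13 replication-dependent and 10 variant. Only 1 H3C gene (H3C10), 1 H4C gene (H4C12) and 1 replication-dependent H1 gene (H1-2) were tested, against 6 H2AC and 4 H2BC genes. H2AC20 and H4C12 passed through the vector libraries alone, with RNF186 means under 1 FPKM. In vector cells the levels ran from 1.43 FPKM for H2BC4 and H4C12 to 420 for H3-3A. H3-3A (420 ± 8.41) and H2AZ1 (406 ± 8.38) were close, with libraries from 410.73 to 427.47 and from 399.42 to 415.16 that overlap. Among the members named in the text, H3-3B (190 ± 3.13) followed without overlap, then MACROH2A1 (157 ± 6.11) and H2AZ2 (82.9 ± 3.31). H2BC12 (64.9 ± 1.49), H1-10 (63.1 ± 4.23) and H2AX (62.1 ± 5.62) overlapped in that order. H1-2 (28.98 ± 3.88), MACROH2A2 (14.8 ± 0.401), H2BC5 (10.2 ± 0.192), H2AC6 (9.16 ± 1.62), H2AC18 and H2AC19 (8.71 ± 0.969 each), H2BC21 (7.99 ± 0.457), H2AJ (6.45 ± 0.535) and H2AC25 (5.38 ± 0.52) were lower, and H2AC20, H3C10, H2AC13, H2BC4 and H4C12 were between 1.43 and 1.75.

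Of the 23 tested histone genes 15 fell with RNF186 and 4 rose. Of 13 tested replication-dependent genes 8 were lower, 1 was higher and 4 were not called, with a median change of -0.44 on the log2(FPKM + 1) scale. All 10 tested variants were called, 7 lower and 3 higher, with a median of -0.20. The test was limma across all genes with Benjamini-Hochberg adjustment, and a gene was called at an adjusted p under 0.05. As background, 38.8% of the 11632 tested genes were called, 19.9% higher and 18.9% lower, with a median change of -0.0046. H2AC18 and H2AC19 had the same value in every library, as did the pairs H3C14 and H3C15, and H4C14 and H4C15, so each pair is 1 measurement. Counted so, 7 of 12 replication-dependent genes were lower. H2AC20 and H4C12 passed through the vector libraries alone. Without them, but with H2AC18 and H2AC19 again counted separately, 6 of 11 were lower with a median of -0.32. Whether the replication-dependent and variant classes differ in their change was not tested.

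**Figure D1:**
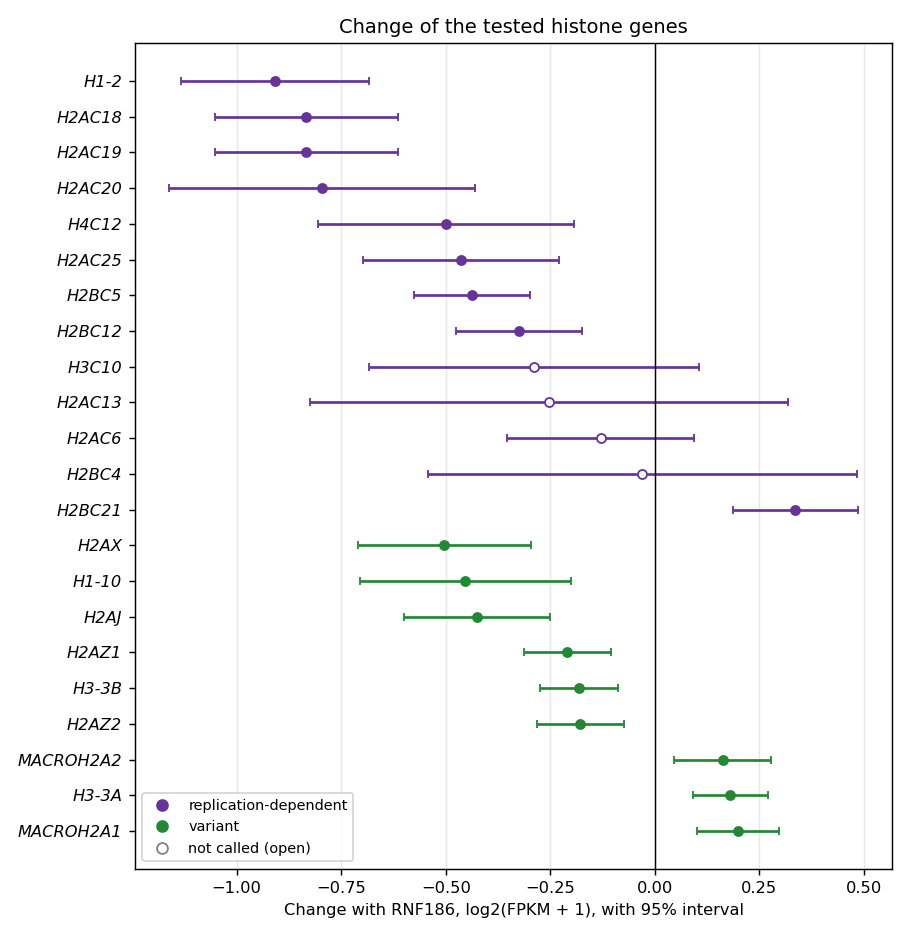
Change with RNF186 (RNF186 minus vector, log2(FPKM + 1) scale) of the tested histone genes that are named in the text, with the 95% interval of the limma fit (n = 3 dishes per group); filled points were called and open points were not. H1-2 stands lowest on this scale at -0.91 (with a pseudocount of 0.1 H2AC20, at -1.56, lies below it), the called rises are H2BC21, MACROH2A1, H3-3A and MACROH2A2, and the 4 open points are all replication-dependent.

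Replication-dependent FPKM summed over the 58 members with values was 171, 161 and 163 in the vector libraries and 120, 120 and 117 in the RNF186 libraries. The groups were far apart, and the ratio of means was 0.721, or -0.47 on the log2 scale. Pairs of genes with the same values are counted as separate genes in these sums and in the shares and family ratios below. With H2AC19 left out the ratio was 0.732 (log2 -0.45). Variants summed to 1622, 1592 and 1604 with vector and 1513, 1557 and 1505 with RNF186, a ratio of 0.95 (log2 -0.07), a direction that turned with quantile normalization (0.0023). Replication-dependent genes thus held 9.32 ± 0.186% of all histone FPKM with vector and 7.24 ± 0.0922% with RNF186. By family, the ratio of summed replication-dependent FPKM was 0.518 for H1, 0.628 for H2A, 0.825 for H2B, 0.737 for H3 and 0.787 for H4. The H3 and H4 sums rest on only 3.60 and 4.27 FPKM with vector. H2AC18 and H2AC19, whose values are the same, made up 17.4 of the 39.3 FPKM of H2A with vector and 8.91 of 24.7 with RNF186. These sums are a description with no test. In bulk RNA, fewer cells of a kind and less RNA per cell cannot be told apart.

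**Figure D2:**
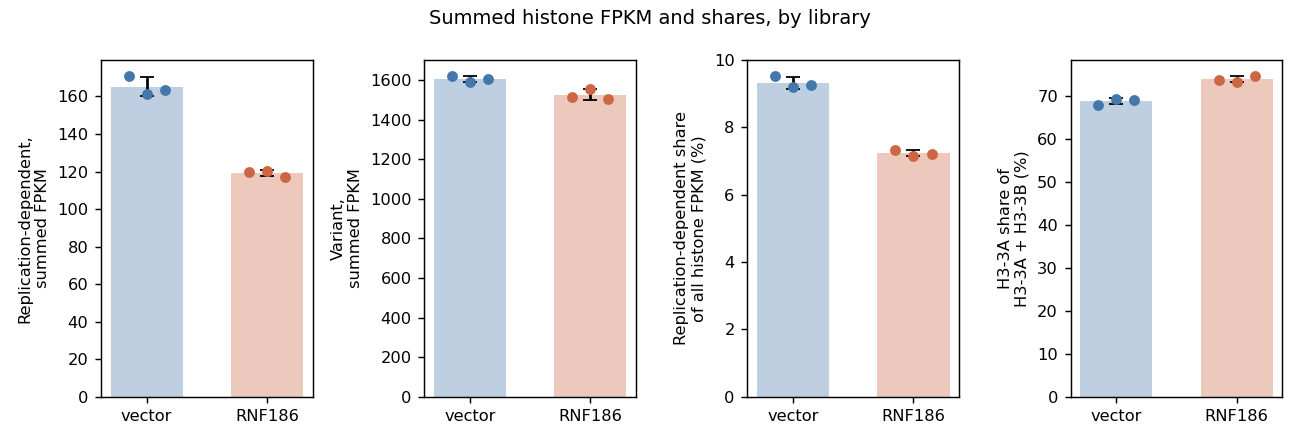
Summed FPKM of replication-dependent and of variant histone genes, the replication-dependent share of all histone FPKM and the H3-3A share of H3-3A + H3-3B, with 1 point per library, bars at the mean and error bars of 1 SD (n = 3 per group). Replication-dependent sums are 117 to 120 with RNF186 against 161 to 171 with vector, and the H3-3A share is 73.3 to 74.7% against 67.9 to 69.3%.

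The linker histones H1-2 and H1-10 fell. H1-2, the replication-dependent linker histone also known for polyadenylated transcripts, was at 33.15, 28.33 and 25.47 FPKM in the vector libraries and 15.56, 16.30 and 13 in the RNF186 libraries. All RNF186 libraries were well under the lowest vector library, and the change was -0.91 (95% interval -1.13 to -0.68, limma, adjusted p = 0.000107). H1-10, the most divergent somatic linker histone, was at 67.99, 60.33 and 61.06 against 41.61, 57.09 and 40.36. RNF186 replicate 2 lay much nearer to the vector group than the other RNF186 libraries, and the change was -0.45 (SE 0.113, limma, adjusted p = 0.0109) with that library and -0.61 (limma, adjusted p = 1.26e-05) without it. H1-1, H1-3, H1-4, H1-5 and H1-6 were under a mean of 0.1 FPKM.

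Replication-dependent H2A genes were lower or not called. H2AC18 and H2AC19, neighbouring genes that share their values here, were at 9.73, 8.61 and 7.80 FPKM with vector and 4.72, 4.87 and 3.78 with RNF186. The groups did not overlap and the level was at 0.512 of the vector mean (change -0.83, 95% interval -1.05 to -0.61, limma, adjusted p = 0.000156). H2AC25, formerly HIST3H2A, stands outside the main cluster and fell from 5.98, 5.10 and 5.06 to 3.88, 4.11 and 2.94 (change -0.46, limma, adjusted p = 0.00692). H2AC20 was at 1.88, 1.95 and 1.25 against 0.20, 0.63 and 0.87, a change of -0.80 (limma, adjusted p = 0.0043). This gene passed the minimum mean only through the vector libraries, a selection that favours a fall. At such levels the size of the change depends on the pseudocount, and with 0.1 in place of 1 the change was -1.56. H2AC6, a gene with known polyadenylated transcripts, was at 7.78, 10.94 and 8.76 against 8.47, 8.02 and 8.14. The groups overlapped, and the change of -0.13 (95% interval -0.35 to 0.09) was not called (limma, adjusted p = 0.332). H2AC13 was at 1.13, 0.75 and 2.46 against 1.77, 0.73 and 0.59 and was not called either (limma, adjusted p = 0.466).

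H2B genes moved in both directions. H2BC12, the highest replication-dependent gene, was at 65.25, 63.30 and 66.23 FPKM with vector and 52.75, 46.15 and 56.50 with RNF186. The groups were apart, and the change was -0.32 (95% interval -0.48 to -0.17, limma, adjusted p = 0.0046). H2BC5 fell from 10.20, 10.06 and 10.44 to 7.32, 6.85 and 7.75 (change -0.44, limma, adjusted p = 0.000515). H2BC21, a gene with a long annotated transcript (2194 bases in GENCODE against 381 for H2BC12), was at 8.03, 7.51 and 8.42 with vector and 9.74, 11.03 and 10.26 with RNF186. Every RNF186 library was above every vector library, and the change was 0.34 (95% interval 0.19 to 0.49, limma, adjusted p = 0.00371). H2BC21 thus took 9.6 ± 0.305% of the summed FPKM of H2BC21, H2BC12 and H2BC5 with vector and 15 ± 1.95% with RNF186. That share covers only the tested H2B genes that were called, without H2BC4, so its rise restates their calls and is no further result. Its divergent neighbour H2AC20, most of whose promoter window is also in that of H2BC21, was called lower, but passed the minimum only through the vector libraries. H2BC4 was at 2.08, 1.05 and 1.16 against 1.17, 2.41 and 0.73, with no call (limma, adjusted p = 0.928).

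H3 and H4 genes of the clusters were barely detected. H3C10 was at 2.38, 1.58 and 1.29 FPKM with vector and 1.02, 1.88 and 0.88 with RNF186. The groups overlapped through RNF186 replicate 2, and the change of -0.29 was not called (limma, adjusted p = 0.224), while without that library it was -0.48 (limma, adjusted p = 0.0203). H4C12 was at 1.73, 1.19 and 1.38 against 0.40, 0.99 and 0.81, a change of -0.50 (limma, adjusted p = 0.0173). This gene passed the minimum mean only through the vector libraries, a selection that favours a fall. Without vector replicate 1 it was under the minimum and not tested. Without RNF186 replicate 1 the call of H4C12 ended (change -0.35, limma, adjusted p = 0.0521).

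**Figure D3:**
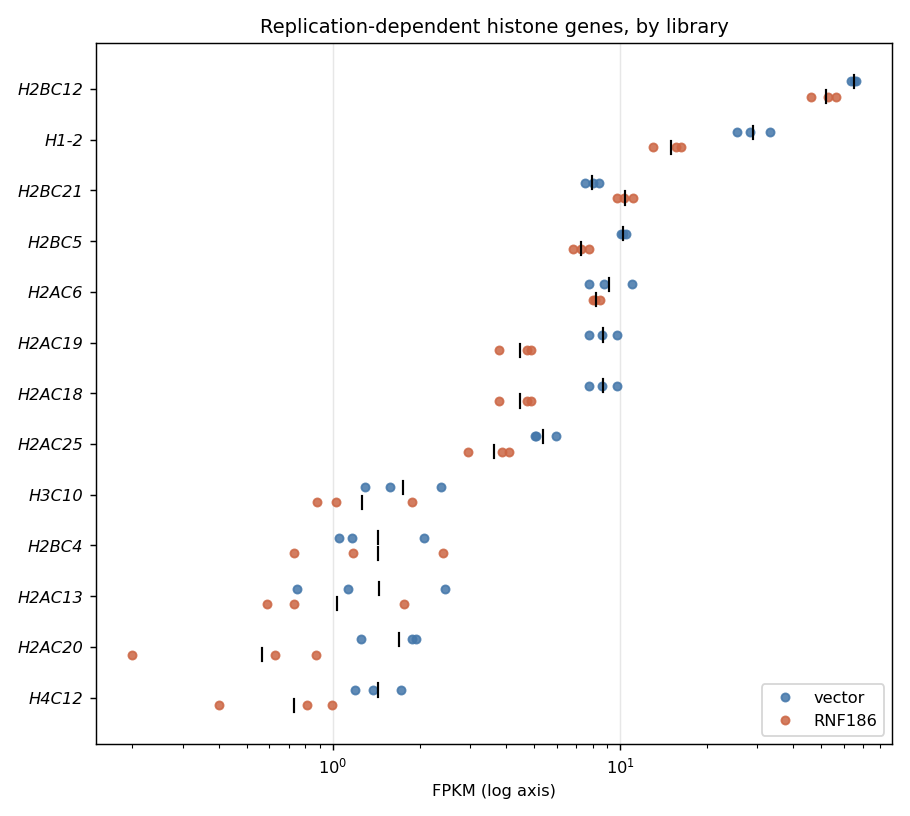
FPKM (log axis) of the 13 tested replication-dependent histone genes, with 1 point per library and a black bar at the mean of each group (n = 3). The groups overlap for H2AC6, H3C10, H2BC4 and H2AC13, and H2BC21 is higher with RNF186 in every library.

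The 43 members between 0 and 1 FPKM were under the minimum for the test. H2AC8, H2AC17, H2AC15, H2AC11 and H2AC7 were above 0 in at least 3 libraries, as were H2BC11, H2BC15, H2BC17, H2BC13, H2BC18, H2BC26, H2BC8 and H2BC7. The same held for H3C6, H3C4, H3C2, H3C14 and H3C15, for H4C14, H4C15, H4C16, H4C5, H4C8 and H4C3, and for H1-3 and H1-4. H2AC8 had the highest mean among them, 0.893 FPKM, and 17 others were above 0 in fewer than 3 libraries with no value over 0.31. Mean FPKM was lower with RNF186 in 29 of the 43, higher in 13 and equal in 1. The pairs H3C14 and H3C15, and H4C14 and H4C15, with the same values, are counted separately in these numbers. Over the 11632 tested genes 5927 had a change below 0, and no such count was made over all genes under 1 FPKM. H4C5 was at 0.18, 0.18 and 0.37 with vector and 0.56, 0.37 and 0.57 with RNF186, close to whole multiples of 0.18, up to 3 of them, with a largest distance of 0.167 from a whole multiple. Such values are those of a few fragments each. With no minimum mean, limma called H2BC8 (adjusted p = 0.0199) and H2AC17 (adjusted p = 0.0335) lower and H4C5 (adjusted p = 0.0441) higher among these 43 genes, where 25.6% of all 17087 genes fitted in that way were called.

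Variant H2A genes split by kind. H2AX, whose phosphorylated form marks DNA breaks, was at 68.27, 60.70 and 57.30 FPKM with vector and 39.28, 50.53 and 41.16 with RNF186. The groups were apart, with RNF186 replicate 2 the nearest to vector, and the change was -0.50 (95% interval -0.71 to -0.30, limma, adjusted p = 0.00237), or -0.61 without that library. H2AJ fell from 6.98, 6.46 and 5.91 to 4.31, 4.97 and 4.36 (change -0.43, limma, adjusted p = 0.0024). The 2 genes for H2A.Z, the variant placed at promoters by the SRCAP and EP400 complexes, fell slightly. H2AZ1 was at 415.16, 399.42 and 402.30 against 344.54, 368.74 and 339.59 (change -0.21, limma, adjusted p = 0.00624). H2AZ2 was at 79.09, 84.31 and 85.23 against 74.91, 73.01 and 71.40 (change -0.18, limma, adjusted p = 0.0134). H2AZ1 held 83 ± 0.84% of H2A.Z FPKM with vector and 82.7 ± 0.674% with RNF186, a difference within the spread of the libraries. The call of H2AZ2 ended with quantile normalization (limma, adjusted p = 0.0895), with rescaling to equal library totals (0.0769), and when vector replicate 2 (0.0619), vector replicate 3 (0.0563) or RNF186 replicate 3 (0.0595) was left out.

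MacroH2A genes, whose proteins carry a large macro domain and are associated with silent chromatin, rose. MACROH2A1 was at 163.15, 151.00 and 155.95 FPKM with vector and 183.30, 179.50 and 176.98 with RNF186. The groups were apart, and the change was 0.20 (95% interval 0.10 to 0.30, limma, adjusted p = 0.00647). MACROH2A2 was at 15.08, 14.95 and 14.33 against 16.12, 16.69 and 17.17 (change 0.16, 95% interval 0.04 to 0.28, limma, adjusted p = 0.034). All RNF186 libraries were above all vector libraries, but the call ended with median scaling (limma, adjusted p = 0.0559), with a term for replicate number (0.0784), and without any 1 library other than RNF186 replicate 2 (0.0528 to 0.126).

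The 2 genes for H3.3, the replacement form of H3 that HIRA and DAXX-ATRX deposit outside replication, moved in opposite directions. H3-3A was at 410.73, 427.47 and 420.43 FPKM with vector and 472.46, 473.75 and 480.37 with RNF186, a tight rise of 0.18 (95% interval 0.09 to 0.27, limma, adjusted p = 0.00669). H3-3B was at 193.77, 189.21 and 187.78 against 168.15, 172.37 and 162.56, a fall of similar size (change -0.18, 95% interval -0.28 to -0.09, limma, adjusted p = 0.00786). Neither gene's groups overlapped. The H3-3A share of their sum was 67.9, 69.3 and 69.1% with vector and 73.8, 73.3 and 74.7% with RNF186, and the sum itself went from 610 ± 6.24 to 643 ± 2.77. The annotated transcript has 1863 bases with 40.5% GC for H3-3A and 2705 bases with 43.1% GC for H3-3B. After each library was adjusted for the length and GC of the transcripts the changes were 0.15 and -0.23, both called (limma, adjusted p = 0.0107 and 0.00274). The part of length and GC in the opposite directions was not tested.

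**Figure D4:**
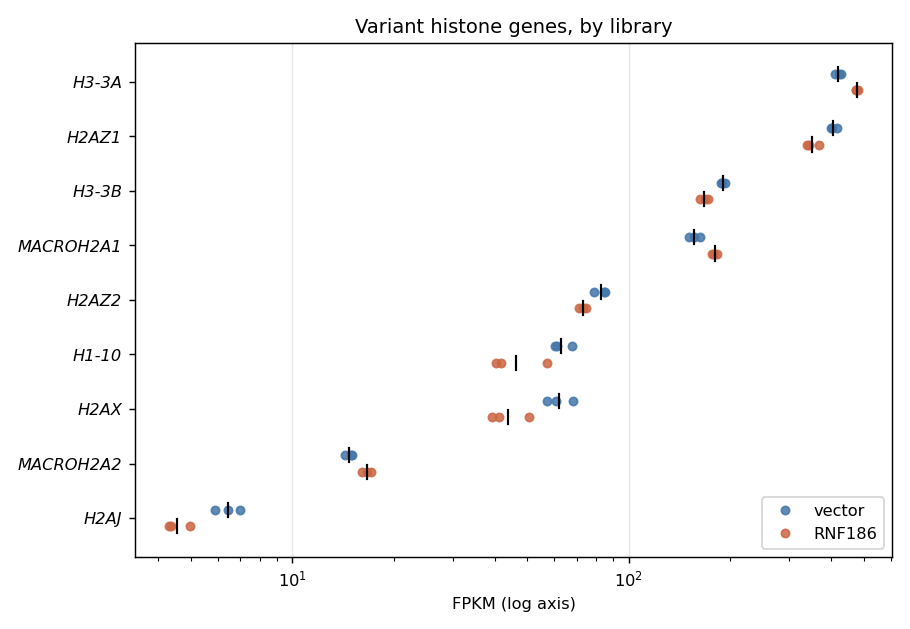
FPKM (log axis) of the tested variant histone genes that are named in the text, with 1 point per library and a black bar at the mean of each group (n = 3). MACROH2A1, MACROH2A2 and H3-3A are higher with RNF186 and the rest lower, and for H1-10 and H2AX 1 RNF186 library lies near the vector group.

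Length and GC content moved with these results. The tested replication-dependent genes have a median transcript of 642 bases with 57.7% GC in GENCODE release 29 and the variants 1922 bases with 53.2%, against 3369 bases and 48.4% over all tested genes. After the correction the medians were -0.26 for the replication-dependent genes and -0.20 for the variants, and 6 and 7 genes were called lower. Calls over all genes fitted rose with it from 4509 (2314 higher, 2195 lower) to 5557 (2640 higher, 2917 lower). H1-2 (-0.72), H2AC18 (-0.57), H2AC25 (-0.31), H2BC5 (-0.37), H2AC20 (-0.47) and H2BC21 (0.31) kept their calls. H2BC12 went to -0.01 (limma, adjusted p = 0.931) and H4C12 to -0.12 (0.385), and among the variants H2AX went to -0.31, H1-10 to -0.23 and H2AJ to -0.17, still called.

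Of 21 genes for histone transcription and mRNA processing 2 were higher, 4 lower and 15 not called, with a median change of -0.04, where 38.8% of all tested genes were called in either direction. SLBP, which binds the stem-loop of replication-dependent histone mRNA, was at 60.83, 57.81 and 58.72 FPKM with vector and 55.02, 54.33 and 55.50 with RNF186. Its libraries were apart, yet the change of -0.10 (95% interval -0.20 to -0.01) was not called (limma, adjusted p = 0.0817). NPAT, the coactivator of clustered histone genes, was at 8.25, 9.14 and 9.27 with vector and 9.99, 8.60 and 9.77 with RNF186, overlapping groups with no call (change 0.08, limma, adjusted p = 0.418). CDK2, whose complex with cyclin E phosphorylates NPAT, rose by 0.29 (limma, adjusted p = 0.000666). SRRT (-0.25), LSM1 (-0.31), a part of the decay machinery for histone mRNA, and CSTF2 (-0.24) fell (limma, adjusted p = 0.00288 to 0.004).

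Of 32 histone chaperones and exchange factors 4 were higher, 7 lower and 21 not called, with a median of -0.01. Over all tested genes 38.8% were called in either direction. IPO4, an importin that carries H3 and H4 into the nucleus, fell most, from 23.5 ± 1.07 to 16.1 FPKM (change -0.52, limma, adjusted p = 0.000344). The H3.3 chaperone HIRA (change -0.34) and TONSL (-0.42), which binds new H4 behind the fork, fell as well, and ATRX rose (0.49). CENPA, the centromeric H3 variant and not a member by the rule, fell from 15.2 ± 0.59 to 11.1 (change -0.42, limma, adjusted p = 0.000764). Of 32 DNA replication genes of S phase 2 were higher, 4 lower and 26 not called, with a median of -0.04, again beside 38.8% called over all. TYMS (-0.30) and MCM2 (-0.23) fell and CDC45 (0.27) and RRM1 (0.20) rose (limma, adjusted p = 0.0014 to 0.0236), while PCNA was at 267 ± 5.91 and 253 with no call (limma, adjusted p = 0.18). The part of S-phase content in the histone changes was not tested.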

How the data were processed

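RNA sequencing libraries of 3 vector and 3 RNF186 dishes were compared. The authors deposited FPKM values to 2 decimals, per the file headers. Bowtie 0.12.2 and the mouse builds mm8 and mm9 are named without a role, per the submitters' processing notes, although the labels and gene identifiers are human. The counting program and the handling of reads shared by near-identical histone genes are not given in the sources used here. Single genes within the clusters are therefore uncertain. Depth is unknown, because FPKM gives no counts, and no counting interval is given.

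Of 19484 gene rows 17563 had values, and 17524 of these matched a RefSeq symbol by Entrez identifier. Genes whose mean reached 1 FPKM (11632) were fitted as log2(FPKM + 1) in limma 3.58.1 (R 4.3.3), with group as the only term, moderated variances that follow mean expression, and two-sided p-values adjusted over all tested genes. The fold scale understates changes of low genes. With 3 dishes per group the smallest exact permutation p is 0.1. The procedure was tested on simulated data. Members, classes and gene lists were chosen with earlier results of these data known. All tested members but 1, which is counted in class totals and not reported here, are named, with RNF186, SLBP, NPAT and up to 4 called genes of each list by smallest p; CENPA, PCNA and those singled out beyond this were picked with their values in view. The alternatives tried were different pseudocounts, filters, scalings and variance models, a replicate term, leaving out each library and a stricter threshold; the length and GC correction, H2AC18 with H2AC19 as 1 gene, and leaving out H2AC20 and H4C12 were chosen after seeing the data.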

Additional observations from a re-analysis of the deposited data

How the results depend on the processing

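Of 381 recomputed changes of single tested members, 361 kept their direction and side of the threshold, 15 lost their call, 1 gained it and 4 changed sign. The stricter threshold is not among the 381. A member was not refitted where it fell under the minimum mean, and such settings are not counted. H2AC20 was thus refitted in 14 settings and H4C12 in 15, against 17 for most members. At an adjusted p under 0.01, 7 replication-dependent genes were lower and 1 higher, and 5 variants lower and 2 higher, among 2586 calls in all. The sign changes were all of H2BC4, which was never called: 0.063 with the length and GC correction, 0.15 without vector replicate 1, 0.02 without RNF186 replicate 1 and 0.19 without RNF186 replicate 3, in a range of -0.30 to 0.19 over the left-out libraries.

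Counts of calls. All tested genes gave 4509 calls, 2586 at an adjusted p under 0.01, and 3140 to 5659 when 1 library was left out. Replication-dependent genes called lower numbered 5 with a minimum mean of 5 FPKM, where 3700 genes were called in all. H2AC20, H4C12 and H2AC25, lower in the main fit, were under that minimum and not tested. When 1 library was left out, 6 to 9 were called lower. The 6 came without vector replicate 1, where H2AC20 and H4C12 were under the minimum mean and not tested. H2AC18 and H2AC19 are counted separately in these numbers. The number called higher was 1 in each of these settings and 2 with no minimum mean. Variants called lower numbered 6 or 7 and higher 2 or 3 when 1 library was left out. With a term for replicate number (replicate block) limma called 4037 genes, 8 lower and 1 higher among replication-dependent genes, 7 lower and 2 higher for variants, and medians of -0.44 and -0.20. Deviations of same-numbered dishes across genes had r = -0.27, -0.07 and 0.26, and the largest r was 0.389, between vector replicate 1 and RNF186 replicate 2. With 3 dishes per group such values cannot settle whether the numbers pair the samples.

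Medians and sums. The replication-dependent median was -0.27 with a pseudocount of 5, -0.11 with no minimum mean, -0.26 with the length and GC correction and -0.48 to -0.32 without 1 library. The variant median was -0.22 with median scaling, -0.14 with quantile normalization, -0.15 with rescaling to equal library totals and -0.22 to -0.17 without 1 library. The log2 change of summed replication-dependent FPKM was -0.42 with rescaling to equal library totals and -0.49 to -0.45 without 1 library. The variant sum changed by -0.10 with median scaling, 0.0023 with quantile normalization, -0.0254 with equal library totals and -0.09 to -0.07 without 1 library, so its direction depends on the scaling. The cause of these shifts was not tested. Rescaling moved the share of calls that were higher from 51.3% to 63.1%. The depth of the libraries is unknown, so what it limits among members under 1 FPKM cannot be given.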
